A study of Mus musculus with 6 samples.

Results

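Amino acid transporters of the cell surface were examined as 10 genes, Slc7a1, Slc7a3, Slc7a5, Slc7a11, Slc3a2, Slc38a1, Slc38a2, Slc1a4, Slc1a5 and Slc6a9, in mRNA-sequencing profiles of the telencephalon of newborn mice. Of the 10, 9 had a row among the 22651 genes of the tables, and these 9 were all among the 13969 genes tested; Slc3a2 was not analysed here. The 10 genes were picked by name from expression values of this same comparison, so their differences between the groups are given as a description, with standard errors and with no test. The tissue came from 3 WT mice (TSC1 flox/flox;Emx1 +/+) and 3 TSC1 mice (TSC1 flox/flox;Emx1-cre/+) at postnatal day 0. All 6 mice carried both floxed Tsc1 alleles, and the WT mice were littermates without Cre. Cre recombinase was expressed from the Emx1 locus, which is active in the progenitors of the dorsal cortex and in the excitatory neurons and glia that descend from them. Interneurons, striatal neurons, vessels, microglia and choroid plexus in the same tissue arise mostly from other progenitors, so a sample mixed cells with and without the deletion.

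Amino acid transporters are membrane proteins that bring amino acids into the cell or exchange them across the membrane, each for its own group of substrates. The cationic carriers take up arginine, lysine and ornithine, system L and system xc- are exchangers built from a light chain and a shared heavy chain, system A takes up small neutral amino acids with sodium, and system ASC exchanges alanine, serine, cysteine and glutamine. Amino acids inside the cell keep the kinase complex mTORC1 active at the lysosome, and TSC1, together with TSC2, restrains mTORC1.

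A transcription factor of the amino acid response, ATF4, is known to bind a short element in the promoters of several carrier genes, so the promoters of the 9 genes were read for its core letters. RefSeq promoter windows on GRCm38.p6, from 250 bases before to 50 bases after a transcription start, were matched for 5 of the 9 genes (Slc7a1, Slc7a11, Slc38a2, Slc1a4 and Slc6a9) in 8 windows; Slc7a3, Slc7a5, Slc38a1 and Slc1a5 had no entry. The core TGATGNAA, searched on both strands, stood in 2 of these 8 windows, those of Slc7a11 and Slc1a4, against 3.97% of 32851 windows of all genes and 2.82% of 71 windows of other amino acid carriers. The stretches from 250 bases before to 20 bases after the start of Slc7a11 (chr3:50443594-50443863, minus strand) and of Slc1a4 (chr11:20332694-20332963, minus strand) are shown because they hold these matches, which are in capitals.
Slc7a11: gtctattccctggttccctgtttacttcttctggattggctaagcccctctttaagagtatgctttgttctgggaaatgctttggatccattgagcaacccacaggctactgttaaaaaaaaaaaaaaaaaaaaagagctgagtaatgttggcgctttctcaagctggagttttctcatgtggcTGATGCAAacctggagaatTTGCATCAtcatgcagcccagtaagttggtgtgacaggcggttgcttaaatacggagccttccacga
Slc1a4: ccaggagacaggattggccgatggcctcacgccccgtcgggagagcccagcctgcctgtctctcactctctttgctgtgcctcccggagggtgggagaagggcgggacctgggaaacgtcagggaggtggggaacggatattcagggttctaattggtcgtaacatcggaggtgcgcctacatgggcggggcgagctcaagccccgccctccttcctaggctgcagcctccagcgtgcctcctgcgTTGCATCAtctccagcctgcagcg
In Slc7a11 the core stood on the gene's strand at positions -66 to -59 from the start and on the other strand at -47 to -40, and in Slc1a4 it stood on the other strand at -4 to 4. The E-box CACGTG, a site of MYC and TFEB, was in 0 of the 8 windows, against 7.15% of all windows and 12.7% of those of other carriers. The letters TGACNNNGC, the core of the antioxidant response element, which do not overlap the 2 other motifs in these windows, were in 4 windows, of Slc7a1, Slc38a2 and Slc6a9, against 12.4% of all and 11.3% of those of other carriers. These matches describe the letters of the windows only. Of the genes that held the ATF4 core, Slc1a4 had a log2 fold change of 0.47 between TSC1 and WT and Slc7a11 of -0.12, both described further on with their errors.

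The total expected count, the number of reads that RSEM assigned to genes, ranged from 14119365 to 17772865 per mouse, and all 6 were distinct libraries. The libraries differed between the groups in the effective length that RSEM gave the genes. The median of length minus effective length was 48.7, 45.8 and 49.7 bases in WT and 55.1, 57.6 and 56.2 in TSC1. This difference cannot be told apart from the genotype, and its part in the carrier levels was not tested. A count of 3, taken as the floor of detection, equalled 0.169 to 0.212 CPM (counts scaled to a common depth), and the lowest expected count of any of the 9 carriers in any mouse was 66. On the first principal component of log2 CPM, which held 47.7% of the variance, TSC1 replicate 3 lay at -3.95, nearer to WT replicate 1 at -7.43 than to the TSC1 replicates 1 and 2 at 26.5 and 30.3. Tsc1 itself had 50.2, 32.0 and 28.4 TPM (a share of all transcripts) in the WT replicates 1, 2 and 3 and 27.1, 21.7 and 22.4 TPM in the TSC1 replicates. These values cover the whole gene, of which Cre removes only a part. The groups did not overlap, and the difference did not pass edgeR's test (log2 fold change -0.66, adjusted p = 0.1), while DESeq2 called it. Of 8 telencephalon markers, all were detected in every mouse, and of 7 hindbrain markers Hoxb2 and Hoxb3 were at 0 in all 6 and Egr2 was detected in every mouse, at up to 1.61 TPM, with a summed level of 1.16 to 1.83 TPM. Markers of the choroid plexus (6 of 6, summed TPM 1176 to 2473 in WT and 31.8 to 867 in TSC1) and of striatal neurons (7 of 7, 275 to 389 in WT and 75.0 to 215 in TSC1) were lower in every TSC1 mouse than in every WT mouse, as were 10.3% of all genes. None of them was called by edgeR, which called 1.52% of all genes; 6 and 7 had an unadjusted p below 0.05, against 18% of all genes, and DESeq2 called 3 in each list, against 4.64%. In bulk tissue, fewer cells of a type and less RNA per cell cannot be told apart, and the part of these other cells in the carrier levels was not tested.

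In WT telencephalon the 9 carriers spanned a wide range of levels. In TPM, each gene's share of transcripts after division by length, which can be compared between genes, Slc38a2 was highest at 152 ± 10.6 (SD, n = 3 mice), followed by Slc7a5 at 134 ± 14.4, Slc38a1 at 113 ± 14.7 and Slc1a4 at 108 ± 15.8, and each of these overlapped the next in the order. Slc7a1 stood apart below them at 55.7 ± 9.26 TPM. Slc6a9 (17.4 ± 0.837), Slc7a11 (12.7 ± 3.80) and Slc1a5 (9.89 ± 1.95) formed a lower range, and Slc7a3 was last, at 5.91 ± 1.42 TPM, with no WT mouse reaching the lowest value of Slc1a5. Among all genes tested, the WT mean of Slc38a2 stood at the percentile 90.5 and that of Slc7a3 at the percentile 19.6. In TSC1 the order was different: Slc7a5 was first at 272 ± 23.4 TPM, above Slc38a2 at 191 ± 25.2 in every mouse, and Slc7a3 at 82.1 ± 28.5 TPM overlapped Slc7a1 at 86.6 ± 17.2. Slc1a5 was then the lowest, at 5.70 ± 0.832 TPM.

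**Figure D1:**
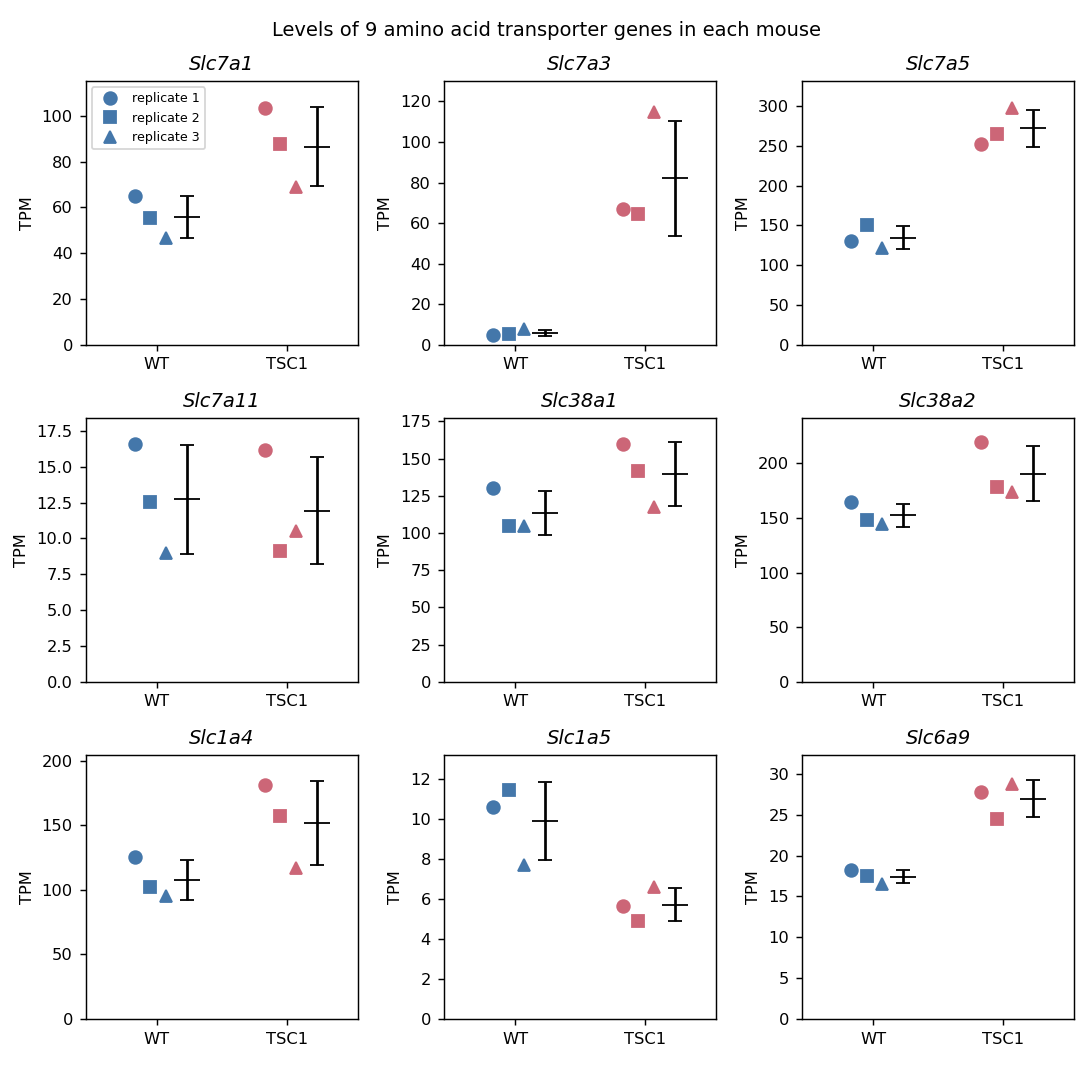
TPM (vertical axis, from 0) of the 9 carriers in the 3 WT and 3 TSC1 mice; symbols mark the replicate, and the bar beside each group is the mean with its SD. All TSC1 mice lie above all WT mice for Slc7a1, Slc7a3, Slc7a5, Slc38a2 and Slc6a9 and below them for Slc1a5.

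The cationic amino acid carriers, which supply arginine and lysine, were both higher in TSC1. Slc7a3 (chromosome X, 101079210 to 101086020, minus strand, GRCm38), a carrier found mainly in brain, had 4.90, 5.29 and 7.53 TPM in the WT replicates 1, 2 and 3 and 66.8, 64.4 and 114.9 TPM in the TSC1 replicates. Every TSC1 mouse was far above every WT mouse, replicate 3 was the highest in both groups, and the ratio of the mean TPM was 13.9. The values rested on 66, 81 and 93 expected counts in WT against 834, 765 and 1559 in TSC1, and without TSC1 replicate 3 the log2 fold change was 3.44 (SE 0.169), with 3.78 (SE 0.278) from all mice. Slc7a3 is X-linked, and replicate 3 of each group was the mouse with Y-linked Ddx3y (64.25 TPM in WT and 61.97 in TSC1, against 0 in the other mice) and nearly no Xist (0.48 and 0.66 TPM, against 442 to 509.9). The part of sex in the level of Slc7a3 was not tested.

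Slc7a1 (chromosome 5, 148327410 to 148399904, minus strand), the widely expressed carrier of the same substrates, had 65.1, 55.4 and 46.6 TPM in WT and 103, 87.5 and 68.9 TPM in TSC1. The groups did not overlap, but the lowest TSC1 mouse, replicate 3, lay within 4 TPM of the highest WT mouse, and the log2 fold change was 0.61 (SE 0.138), or 0.74 without that mouse. Slc7a2, a carrier of this type that is not among the 10 genes, had 8.69 to 11.5 TPM in WT and 9.74 to 13.96 TPM in TSC1, with overlapping groups and a log2 fold change of 0.16 (edgeR adjusted p = 0.604). Within each mouse, Slc7a3 made up 6.01%, 7.56% and 11.99% of the summed TPM of Slc7a1, Slc7a2 and Slc7a3 in WT and 36.3%, 39.8% and 59.4% in TSC1. The mean share was 8.52% ± 3.10 (SD, n = 3) in WT and 45.2% ± 12.4 in TSC1, a difference of 36.6 percentage points. In expected counts, which are not divided by length, the shares were 2.93% and 21.7%.

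Slc7a5 and Slc7a11 are light chains that work only when joined to the heavy chain encoded by Slc3a2. Slc7a5 (chromosome 8, 121881150 to 121907694, minus strand) forms system L, which imports leucine and other large neutral amino acids and is abundant at the blood-brain barrier. Its level was 131, 150.0 and 122 TPM in WT and 253, 265 and 298 TPM in TSC1, so that the lowest TSC1 mouse was over 100 TPM above the highest WT mouse. The mean TPM in TSC1 was 2.03 times that in WT, with a log2 fold change of 0.99 (SE 0.0981). The summed TPM of endothelial markers was 255 to 323 in WT and 234 to 281 in TSC1, and of 9 markers edgeR called 0, beside 1.52% of all genes, 4 had an unadjusted p below 0.05, beside 18%, and DESeq2 called 3, beside 4.64%. The means of Mfsd2a, Slco1c1 and Flt1 were higher in TSC1 and those of the other 6 markers lower. The part of endothelial cells in the level of Slc7a5 was not tested.

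Slc7a11 (chromosome 3, 49892526 to 50443614, minus strand), the light chain of system xc-, exchanges glutamate for cystine, a source of glutathione. It had 16.6, 12.5 and 9.01 TPM in WT and 16.2, 9.11 and 10.5 TPM in TSC1, and the groups covered almost the same range. Its log2 fold change of -0.12 was smaller than its standard error of 0.229, and the sign turned to 0.09 without WT replicate 1 and to 0.04 without TSC1 replicate 2. The TPM of Slc7a5 was 7.88 to 13.5 times that of Slc7a11 in WT and 15.6 to 29.1 times in TSC1, without overlap. Neither light chain could be set against the heavy chain, since Slc3a2 was not analysed here.

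The system A carriers, which take up alanine, serine and glutamine with sodium, were the most even pair. Slc38a2 (chromosome 15, 96687392 to 96699730, minus strand), known to be induced when amino acids are scarce, had 164, 148 and 145 TPM in WT and 219.5, 178 and 174 TPM in TSC1. The groups did not overlap, and the log2 fold change was 0.30 (SE 0.0841). Slc38a1 (chromosome 15, 96571418 to 96642913, minus strand), a carrier of neurons, had 130.2, 105 and 104 TPM in WT and 159.9, 142 and 117 TPM in TSC1. Here TSC1 replicate 3 fell below WT replicate 1, so the groups overlapped, with a log2 fold change of 0.27 (SE 0.107). The ratio of Slc38a2 to Slc38a1 TPM was 1.35 ± 0.0779 (SD, n = 3) in WT and 1.37 ± 0.112 in TSC1, with overlapping ranges.

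The system ASC carriers went in opposite directions. Slc1a4 (chromosome 11, 20302180 to 20332713, minus strand), which moves serine, alanine and cysteine, had 125, 103 and 94.9 TPM in WT and 182, 157 and 117 TPM in TSC1. TSC1 replicate 3 lay between WT replicates 1 and 2, so the groups overlapped, and the log2 fold change was 0.47 (SE 0.141), or 0.62 without that mouse. Slc1a5 (chromosome 7, 16781340 to 16798274, plus strand), a carrier that also accepts glutamine, had 10.6, 11.4 and 7.70 TPM in WT and 5.63, 4.91 and 6.57 TPM in TSC1. It was the carrier among the 9 whose TSC1 mice were all below the WT mice, with a log2 fold change of -0.82 (SE 0.183) that rested on 111 to 204 expected counts in WT and 68 to 104 in TSC1. The TPM of Slc1a4 was 11.1 ± 1.81 times (SD, n = 3) that of Slc1a5 in WT and 27.3 ± 8.29 times in TSC1, and the lowest TSC1 ratio, 17.8, was above the highest WT ratio, 12.3.

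Slc6a9 (chromosome 4, 117834506 to 117875198, plus strand), the glycine transporter of glia and of some neurons, had 18.2, 17.5 and 16.6 TPM in WT and 27.7, 24.4 and 28.8 TPM in TSC1. Its replicates lay close together and the groups were well apart, with a log2 fold change of 0.60 (SE 0.0966). Of 7 markers of astrocytes and radial glia, edgeR called 2 as higher in TSC1, Gfap and Aldoc, beside 0.859% of all genes. Of the other 5, 4 had a log2 fold change below 0, among them Gja1 at -0.69 (edgeR unadjusted p = 0.00875, adjusted p = 0.13). The summed TPM of the 7, most of it from Fabp7, was 2837 to 3387 in WT and 2911 to 3049 in TSC1. Their part in the level of Slc6a9 was not tested.

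**Figure D2:**
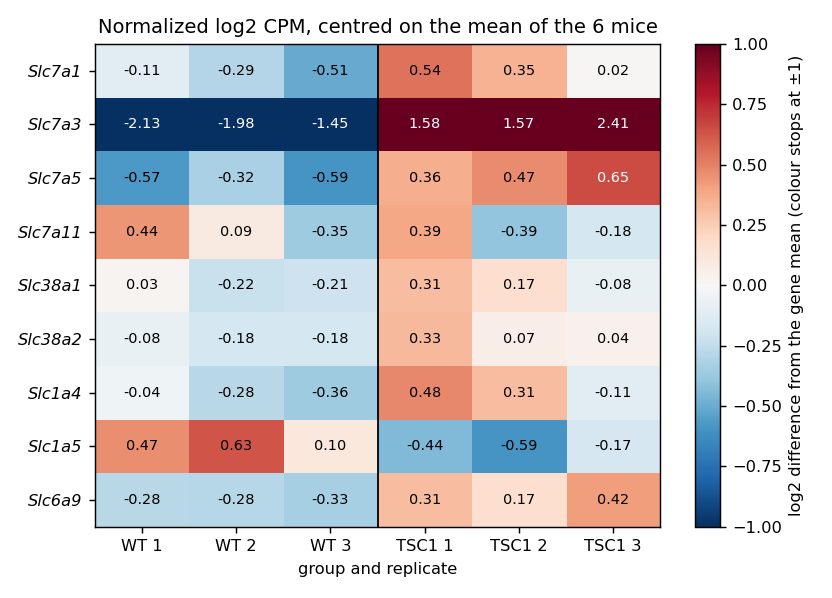
Normalized log2 CPM of each carrier (rows) in each mouse (columns, group and replicate), centred on the mean of the 6 mice; the colour scale stops at -1 and 1 and the numbers are the values. TSC1 replicate 3 is the lowest TSC1 mouse for Slc7a1, Slc38a1, Slc38a2 and Slc1a4 and the highest for Slc7a3, Slc7a5, Slc6a9 and Slc1a5.

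The carriers did not vary alike among the TSC1 mice. TSC1 replicate 3, which lay nearest to WT on the first principal component, had the lowest TSC1 value of Slc7a1, Slc38a1, Slc38a2 and Slc1a4, with centred log2 CPM of 0.02, -0.08, 0.04 and -0.11. The same mouse had the highest TSC1 value of Slc7a3, Slc7a5 and Slc6a9, at 2.41, 0.65 and 0.42, and of Slc1a5, at -0.17, where it lay nearest to WT. TSC1 replicate 1 was the highest TSC1 mouse for Slc7a1, Slc7a11, Slc38a1, Slc38a2 and Slc1a4. Without TSC1 replicate 3, the log2 fold changes were 0.91 for Slc7a5, 0.54 for Slc6a9, 0.37 for Slc38a1, 0.35 for Slc38a2 and -0.95 for Slc1a5. Summed TPM of the choroid plexus markers was 1702, 1176 and 2473 in WT replicates 1, 2 and 3. In the TSC1 replicates it was 31.8, 111 and 867. That of the striatal markers was 275, 332 and 389 in WT and 75.0, 91.5 and 215 in TSC1. Replicate 3 was thus the highest in both groups for both lists. It was also the mouse with Y-linked Ddx3y in each group, so sex and these markers cannot be told apart here. Leaving out any mouse therefore gave the groups unlike shares of the sexes, and without a replicate 3 its group held no mouse with Ddx3y. The part of sex and of these markers in the carrier levels was not tested.

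Of the 9 carriers, 5 were above WT in every TSC1 mouse in TPM and 1 was below; over all genes tested, 12.3% were above and 10.3% below in this way. Since this contrast chose the carriers, nothing is read from that count. The log2 fold change was above 0 for 7 carriers and below 0 for 2, and its median was 0.47, beside -0.00267 over all 13969 genes. For the same reason, nothing is read from these directions or from this median. Summed over the 9 carriers, the level was 666, 608 and 553 TPM in WT and 1033, 933 and 936 TPM in TSC1, a difference of 358 TPM between the means of 609 ± 56.5 and 967 ± 57.2 (SD, n = 3). Slc7a5 made up 38.5% of this difference, Slc7a3 21.3%, Slc1a4 12.3%, Slc38a2 10.7%, Slc7a1 8.63%, Slc38a1 7.39% and Slc6a9 2.66%, while Slc7a11 and Slc1a5 took away little, at -0.223% and -1.17%. Within these 9 carriers, Slc7a5, already abundant, made up more of the difference in TPM than Slc7a3 with its larger ratio. Since this contrast chose the carriers, nothing is read from the size of the summed difference. TPM is a share of transcripts, so these values do not give a number of transcripts per cell.

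**Figure D3:**
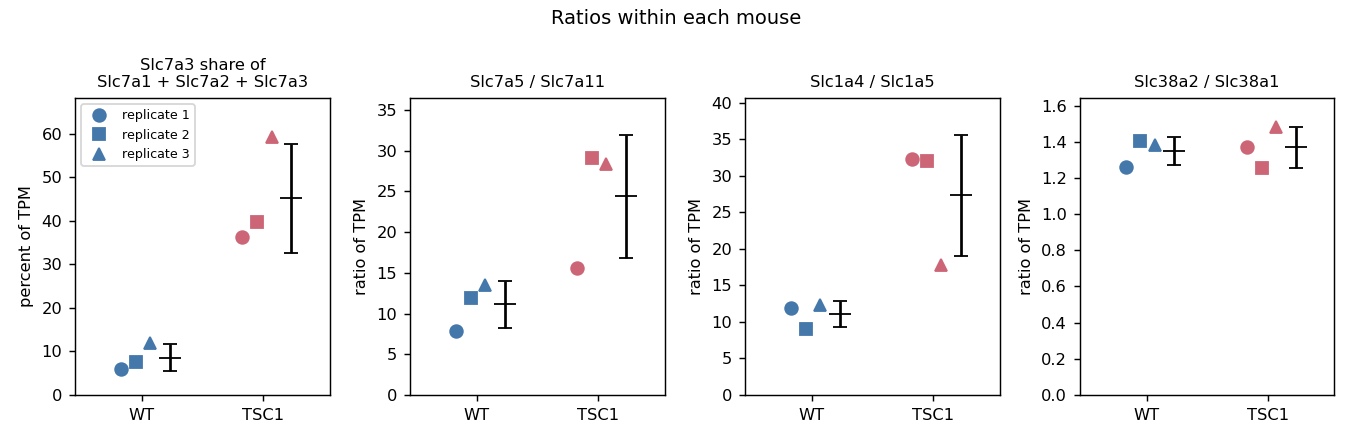
Ratios of TPM within each mouse, from left to right Slc7a3 as a percent of Slc7a1, Slc7a2 and Slc7a3 together, Slc7a5 over Slc7a11, Slc1a4 over Slc1a5, and Slc38a2 over Slc38a1; bars are the mean and SD of 3 mice. The first 3 are higher in every TSC1 mouse than in every WT mouse, and the last overlaps.

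The genes with the pattern nearest to the mean profile of the 9 carriers were found by the root mean square difference of centred log2 CPM over the 6 mice, among other genes with a mean of at least 5 CPM. The 10 nearest were Zbtb16, AI413582, Abca8a, Eps15, Cdkl2, Cacna2d1, Dhtkd1, Arap2, Crhr1 and Pla2g4e, at differences of 0.0747 to 0.0927. Their log2 fold changes lay between 0.52 for Pla2g4e and 0.67 for Zbtb16, a range that the choice by nearness itself sets. The mean profile leans on Slc7a3, whose centred values reached 2.41, and includes Slc1a5, which went the other way. It is therefore not a pattern that all 9 carriers shared. This likeness is a description over 6 samples, and none of the 10 is an amino acid carrier.

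Whether other amino acid carriers differed was asked of 62 further genes that hold none of the 10 above. Of these, 61 had a row, with Slc1a1 not analysed here, and 49 passed the filter on low counts. Against a background of 1.52% of all genes tested (212 of 13969; 0.859% higher and 0.659% lower in TSC1), edgeR's quasi-likelihood test called 5 of the 49, of which 2 rose and 3 fell in TSC1. The other 44 did not pass, 15 of the 49 had an unadjusted p below 0.05 against 18% of all genes, and the median log2 fold change was 0.04, with 29 above 0 and 20 below. The list of 62 was chosen with earlier results of these data known. Its share of calls beside that of all genes is therefore a description, and nothing is read from it.

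The carriers that rose were Slc38a7 and Slc6a17. Slc38a7, which releases glutamine and asparagine from lysosomes, had 26.0, 27.6 and 28.2 TPM in WT and 45.0, 43.0 and 38.03 TPM in TSC1, and rose by a log2 fold change of 0.59 (SE 0.0921, edgeR adjusted p = 0.0231). Slc6a17, a neuronal carrier of neutral amino acids known from synaptic vesicles and grouped here with the general carriers, had 93.0, 83.3 and 78.55 TPM in WT and 109.6, 111 and 104 TPM in TSC1, a smaller rise of 0.32 (SE 0.065, edgeR adjusted p = 0.0479). For both genes, every TSC1 mouse was above every WT mouse. Among 8 lysosomal carriers tested, Slc38a7 was the only call, and the next by size were Ctns, the cystine exporter (0.39, adjusted p = 0.154), and Slc36a1, a proton-coupled carrier (0.37, adjusted p = 0.0971).

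The falls were in glutamine carriers and in a GABA carrier. Slc38a5, a system N carrier, had 31.6, 27.8 and 24.2 TPM in WT and 16.9, 18.01 and 15.2 TPM in TSC1, and fell by 0.77 on the log2 scale (SE 0.125, edgeR adjusted p = 0.0276). Slc38a5 is X-linked, and replicate 3, the mouse with Ddx3y, was the lowest in both groups. The part of sex in its level was not tested. Slc38a3, the system N carrier of astrocytes, had 59.0, 60.6 and 53.8 TPM in WT and 46.4, 39.3 and 44.85 TPM in TSC1, a log2 fold change of -0.44 (SE 0.0879, edgeR adjusted p = 0.0479). These system N genes fell, whereas the system A genes Slc38a1 and Slc38a2 had higher means in TSC1; the part of the glial and endothelial markers given above was not tested. Slc32a1, which loads GABA and glycine into vesicles, had 47.0, 42.1 and 47.2 TPM in WT and 16.6, 14.04 and 29.7 TPM in TSC1, a log2 fold change of -1.19 (SE 0.238, edgeR adjusted p = 0.0479). Of the 8 telencephalon markers, edgeR called 2 as lower in TSC1, the inhibitory neuron genes Gad1 and Dlx1, beside 0.659% of all genes. Dlx2 was lower without overlap but not called (log2 fold change -0.49, edgeR adjusted p = 0.0862). Of the 8, 5 had a log2 fold change below 0 and 3 above. The striatal markers above were lower without overlap, and edgeR called 0 of the 7. The part of these markers in the level of Slc32a1 was not tested.

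Of the 12 transmitter carriers tested, Slc32a1 was the only call. Slc6a12, the betaine and GABA carrier, had a log2 fold change of -0.42 at under 2.2 TPM in every mouse (adjusted p = 0.674). Among cell surface carriers not called, the largest differences were in Slc6a20b (0.81, adjusted p = 0.453) and Slc38a11 (-0.73, adjusted p = 0.438), both under 2 TPM. Of 8 mitochondrial carriers tested, edgeR called 0, with 1 at an unadjusted p below 0.05, and DESeq2 and limma, which called 1.98% of all genes, also called 0; the largest differences were in the aspartate and glutamate carrier Slc25a13 (-0.43, adjusted p = 0.333) and the glutamate carrier Slc25a22 (0.27, adjusted p = 0.147).

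Each of the 5 calls depended on which mice were kept. Fits without WT replicate 2, WT replicate 3, TSC1 replicate 1 or TSC1 replicate 2 called 0 of the other carriers in edgeR (14, 13, 13 and 15 at an unadjusted p below 0.05), while fits without WT replicate 1 or TSC1 replicate 3 called 4 and 6; all 5 genes were still called without TSC1 replicate 3, and Slc6a17, Slc38a5 and Slc38a7 without WT replicate 1. The share of all genes called was 0.206%, 0.248%, 0.262% and 0.262% in the former 4 fits and 3.18% and 5.68% in the latter. Over the fits without a mouse the adjusted p of Slc38a7 ranged from 0.00649 to 0.147, that of Slc38a5 from 0.0215 to 0.155, that of Slc6a17 from 0.0284 to 0.208, that of Slc38a3 from 0.0303 to 0.222 and that of Slc32a1 from 0.000297 to 0.201, and the sign of each log2 fold change was kept. With all 6 mice, Slc38a7 and Slc38a5 were called under each of the 9 other settings, Slc32a1 was lost with upper quartile scaling, and Slc6a17 and Slc38a3 were lost with upper quartile scaling, both limma fits and effective length offsets.

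**Figure D4:**
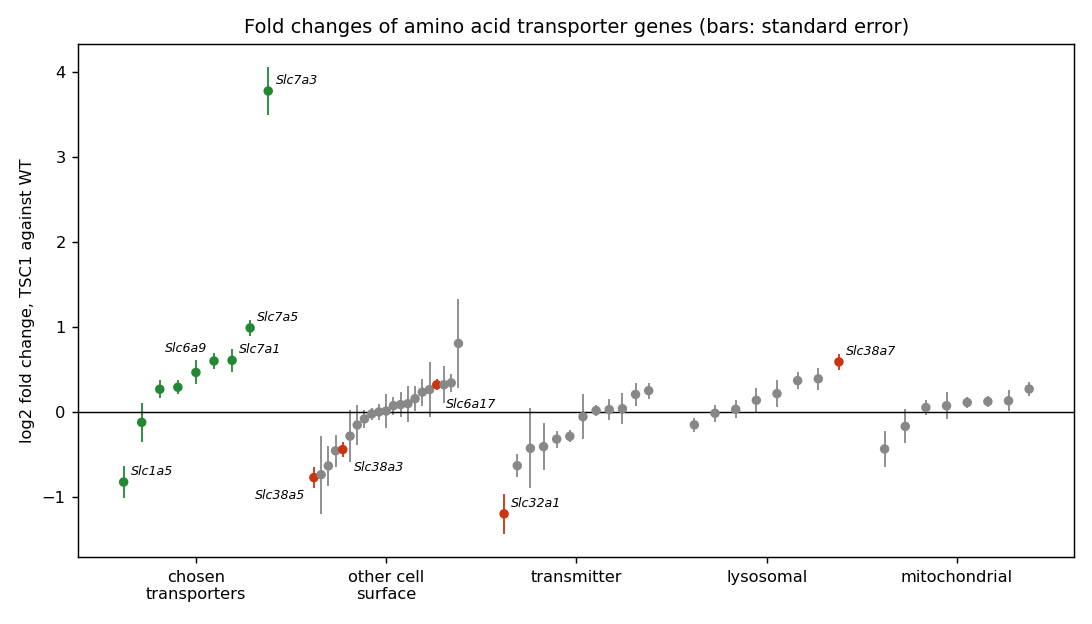
Log2 fold change of TSC1 against WT (vertical axis, edgeR; bars are standard errors) for the 9 chosen carriers (green, not tested) and for 49 other amino acid carriers by role (red, called by edgeR; grey, not called). Slc7a3, at 3.78, is above all others; the 5 called genes are labelled.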

How the data were processed

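Telencephalon mRNA of 3 WT and 3 TSC1 mice was sequenced as TruSeq libraries in paired-end runs. The authors checked reads with FastQC, trimmed them with the Fastx-toolkit, used MapSplice2 to align them to mm10, and estimated gene abundance with RSEM 1.2.12 (version per the submitters' processing notes). Per sample, the deposited tables hold a non-normalized expected count, the reads RSEM assigned to a gene. The authors' deposited TPM expresses a gene as its share of transcripts, corrected for effective length, and the deposited FPKM, not used in tests, scales the count by length and depth. No columns were pooled.

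Groups were taken from the genotype labels. R 4.3.3 and edgeR 4.0.16 were used on rounded expected counts (TMM, filterByExpr, two-sided quasi-likelihood test, Benjamini-Hochberg over all 13969 genes, threshold 0.05). The test of the study, a T value and median ratio with permuted samples, was not rerun. Alternatives were RLE and upper quartile scaling, DESeq2 1.42.0, limma 3.58.1 on log2(TPM + 1) and log2(TPM + 0.1), no filter, at least 10 counts in every sample, effective length offsets, a replicate block and each mouse left out in turn. The fit was tested on simulated data. Positions are from GENCODE on GRCm38, the assembly of mm10, and promoter sequences from RefSeq on GRCm38.p6.

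The 10 genes, the list of other carriers and the marker lists were chosen with earlier results of these data known. Named were all chosen genes, each other carrier called, the 2 largest not called in each role (some are not reported here), the 10 genes nearest in profile (log2 CPM with a prior count of 2) and Tsc1; Slc7a2 is named for the share of Slc7a3, and Xist and Ddx3y as checks chosen after their values were seen. Expected counts of all 9 carriers were whole within 0.005. Counting error alone sets the floor of 3 counts.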

Additional observations from a re-analysis of the deposited data

How the results depend on the processing

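The members' median log2 fold change, a description of genes chosen by this contrast, kept its sign and stayed between 0.34 and 0.57 under all 15 alternatives. No scaling moved the median of all genes by over 0.1. Of 135 values of the 9 carriers, 133 kept their direction within the spread between mice; 2 changed sign, both of Slc7a11, which ranged from -0.377 to 0.0922 without 1 mouse (0.0922 without WT replicate 1 and 0.0356 without TSC1 replicate 2). Slc6a12 ranged from -0.763 to 0.123 without 1 mouse and turned positive without WT replicate 2. The number of genes called, 212, was 636 with DESeq2, 346 with no filter and 551 with the replicate block, and 29 to 799 without 1 mouse (29 without WT replicate 2, 35 without WT replicate 3, 37 without TSC1 replicate 1 and 37 without TSC1 replicate 2, 447 without WT replicate 1, 799 without TSC1 replicate 3). The number of other carriers called, 5, was 2 with upper quartile scaling, 3 with limma on log2(TPM + 1), 3 with limma on log2(TPM + 0.1), 3 with effective length offsets, and 0 to 6 without 1 mouse (0 in edgeR beside 13 to 15 at an unadjusted p below 0.05; other tools were not run without a mouse). The other settings gave 5 to 7. The difference in the share of Slc7a3 was 18.8 percentage points in expected counts, which are not divided by length, and 29.5 to 41.1 without 1 mouse. The causes of the other differences were not tested.

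Same-numbered mice deviated from their group means with r of 0.267, -0.133 and 0.318 across genes, so the numbers were not shown to pair the mice; the replicate block raised the other carriers called to 7. The planned ratio of light chains to the heavy chain gave no value, since Slc3a2 was not analysed here. With 3 mice a group, single values were not tested for outliers.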
